A study of Mus musculus with 614 samples.

Results

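The 9 genes of the neutrophil primary granule programme described here are Elane, Mpo, Prtn3, Ctsg, Ms4a3, Fcnb, Gstm1, Hp and Mgst1. They were taken by name, 9 of the 43280 gene symbols in the deposited table, and all 9 were measured in every cell of all 12 sort gates. The study sequenced messenger RNA of single cells sorted by surface proteins from bone marrow (11 gates) and blood (1 gate) of adult C57BL/6J mice, 7 to 10 weeks old, with no treatment named. Each cell was captured on a microfluidic chip (Fluidigm C1) and primed with oligo-dT. Values are TPM, the share that a gene takes of the transcripts of a cell after scaling by length, so levels of different genes can be compared.

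All gates were sorted as negative for lineage markers. Dendritic precursors (pre-DC) were sorted as CD11c+MHCII-Flt3+CD172α-B220- and came from blood (16 cells) or, split by the proteins SiglecH and Ly6C, from marrow. From marrow, 45 cells were SiglecH+Ly6C+ and 68 were SiglecH-Ly6C+, while the Ly6C- cells numbered 70 with SiglecH (SiglecH+Ly6C-) and 70 without it (SiglecH-Ly6C-). Plasmacytoid dendritic cells (pDC, 27 cells) were B220+SiglecH+. Common monocyte progenitors (cMoP, 66 cells) were CD115+Ly6C high, Flt3- and c-Kit+, and granulocyte-monocyte progenitors (GMP, 51 cells) were c-Kit+CD34+, CD16/32 high and Sca-1-. Common lymphoid progenitors (CLP, 48 cells) were CD127+Flt3+ with low c-Kit and Sca-1, and pre-pro-B cells (30 cells) were B220+CD43+CD93+. Common dendritic cell progenitors (CDP, 58 cells) were Flt3+ with intermediate c-Kit and CD115-, and lymphoid-primed multipotent progenitors (LMPP, 65 cells) were c-Kit+CD34+Sca-1+CD127-. No label names an animal, so each gate counts as 1 sample, no test between gates was possible, and each SD is over cells.

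Primary (azurophil) granules are the first granules that a developing neutrophil makes. They form at the promyelocyte stage and hold serine proteases and myeloperoxidase, which digest and oxidise engulfed microbes. The transcripts for these proteins are made early and are switched off before the transcripts of the secondary and tertiary granules, so granule content follows the time of synthesis. Monocytes carry some of the same proteins, and granulocyte-monocyte progenitors are known for these transcripts. Elane (neutrophil elastase), Prtn3 (proteinase 3) and Ctsg (cathepsin G) encode the serine proteases, and Mpo encodes myeloperoxidase. The other 5 genes are known as companions of this stage rather than as defining granule contents. Ms4a3 encodes a membrane protein typical of these progenitors, Fcnb the lectin ficolin B, Hp the haemoglobin-binding protein haptoglobin, and Gstm1 and Mgst1 a cytosolic and a microsomal glutathione transferase. In human neutrophils, haptoglobin is stored in secondary granules.

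On GRCm38 (GENCODE M21) Prtn3 lies on chromosome 10 from 79874476 to 79883174 and Elane on the same strand from 79886247 to 79888215, with 3072 bases between them. Mpo lies on chromosome 11 from 87793581 to 87804413, Ctsg on chromosome 14 from 56099881 to 56102574, and Ms4a3 on chromosome 19 from 11629496 to 11640851. Fcnb is on chromosome 2 from 28076378 to 28084885, Gstm1 on chromosome 3 from 108012255 to 108017973, Hp on chromosome 8 from 109575128 to 109579172 and Mgst1 on chromosome 6 from 138140316 to 138156755. All are annotated as protein coding.

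Stretches of the promoters are printed because several members share a short motif there. RefSeq promoter sequences (GRCm38.p6) were at hand for 8 of the 9 members, with 2 starts each for Gstm1 and Mgst1. In the 250 bases before the annotated start, on either strand, GGAAGT, the core bound by Ets factors such as PU.1, occurred in 6 of the 8, against 19.7% of all 32851 promoters of the same length. In the stretches below, each of 46 bases on the strand of the gene, capitals mark that core.
Elane, chr10:79886201-79886246, plus strand: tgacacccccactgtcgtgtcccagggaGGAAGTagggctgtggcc
Mpo, chr11:87793534-87793579, plus strand: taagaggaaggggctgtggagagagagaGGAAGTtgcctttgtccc
Prtn3, chr10:79879546-79879591, plus strand: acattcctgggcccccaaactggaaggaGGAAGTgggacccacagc
Ctsg, chr14:56102762-56102807, minus strand: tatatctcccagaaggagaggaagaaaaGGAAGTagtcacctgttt
Ms4a3, chr19:11640889-11640934, minus strand: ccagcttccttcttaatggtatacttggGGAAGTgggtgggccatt
Fcnb, chr2:28085048-28085093, minus strand: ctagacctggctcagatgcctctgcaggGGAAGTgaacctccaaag
Fcnb, chr2:28084963-28085008, minus strand: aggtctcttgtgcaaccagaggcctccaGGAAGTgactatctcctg
Counted from the RefSeq start, the core began at -83 in Elane, -93 in Prtn3, -222 in Mpo and -55 in Ms4a3, and at -187 and -102 in Fcnb. The stretch of Prtn3 lies in an intron of GENCODE transcripts that start further upstream, and the others lie upstream of the annotated genes. The longer form GAGGAAGT, which contains GGAAGT, was in the windows of Elane, Mpo and Prtn3 and in 2.44% of all promoters. The Myb core CAACGG was in those of Elane and Prtn3 (4.05% of all), the C/EBP motif GCAAT in those of Elane and Mpo (23.1% of all), and the Runx core TGTGGT in that of Ctsg (14% of all). No window of Gstm1 or Mgst1 held any of the 5 motifs. The motifs were chosen with the sequences in view, and a match is not evidence of binding.

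As TPM keep no read counts, genes detected per cell (1 TPM or more) stood in for depth. Gate medians lay between 3280 genes in CLP and 6671 in cMoP, and the richest cell had 9977. Library numbers in the labels form 9 runs. CLP, pre-pro-B and GMP cells share 1 run in consecutive blocks, so low levels of a GMP gene in the other 2 gates may be carried-over reads. CDP share a run with 24 of the 27 pDC, and cMoP, LMPP, blood pre-DC and SiglecH-Ly6C+ pre-DC each have a run of their own. Transcripts of the sort markers followed the gates only in part. Ly6a, which encodes Sca-1, was at 1 TPM or more in 84.3% of GMP cells, although they were sorted as negative. In LMPP cells, sorted as positive, it was in 55.4%. Its mean level was nearly equal, as log2(TPM + 1) 3.98 ± 2.36 in GMP and 4.03 ± 4.23 in LMPP. Pre-pro-B cells, of the same run as GMP, averaged 6.42 ± 4.19. Siglech was in 72.5% of GMP, but in 6.06% of cMoP and 1.54% of LMPP. In the gates that share the run of GMP it was in 100% of pre-pro-B and 81.25% of CLP cells. A part of carried-over reads in the Siglech and Ly6a values of GMP was not tested.

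The granule genes were high in cMoP and GMP and in no other gate. Together the 9 genes took a median of 2.0% of all transcripts per cMoP cell (highest 6.13%) and 3.41% per GMP cell (highest 8.52%). The median was 0.0167% in CLP, 0.0163% in CDP, 0.0747% in LMPP and lower in the remaining gates. For 7 of the 9 the highest gate mean was in GMP, and for Fcnb and Mgst1 it was in cMoP. Except for Prtn3 and Ctsg, the means of cMoP and GMP lay closer together than the larger of the 2 SDs.

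**Figure D1:**
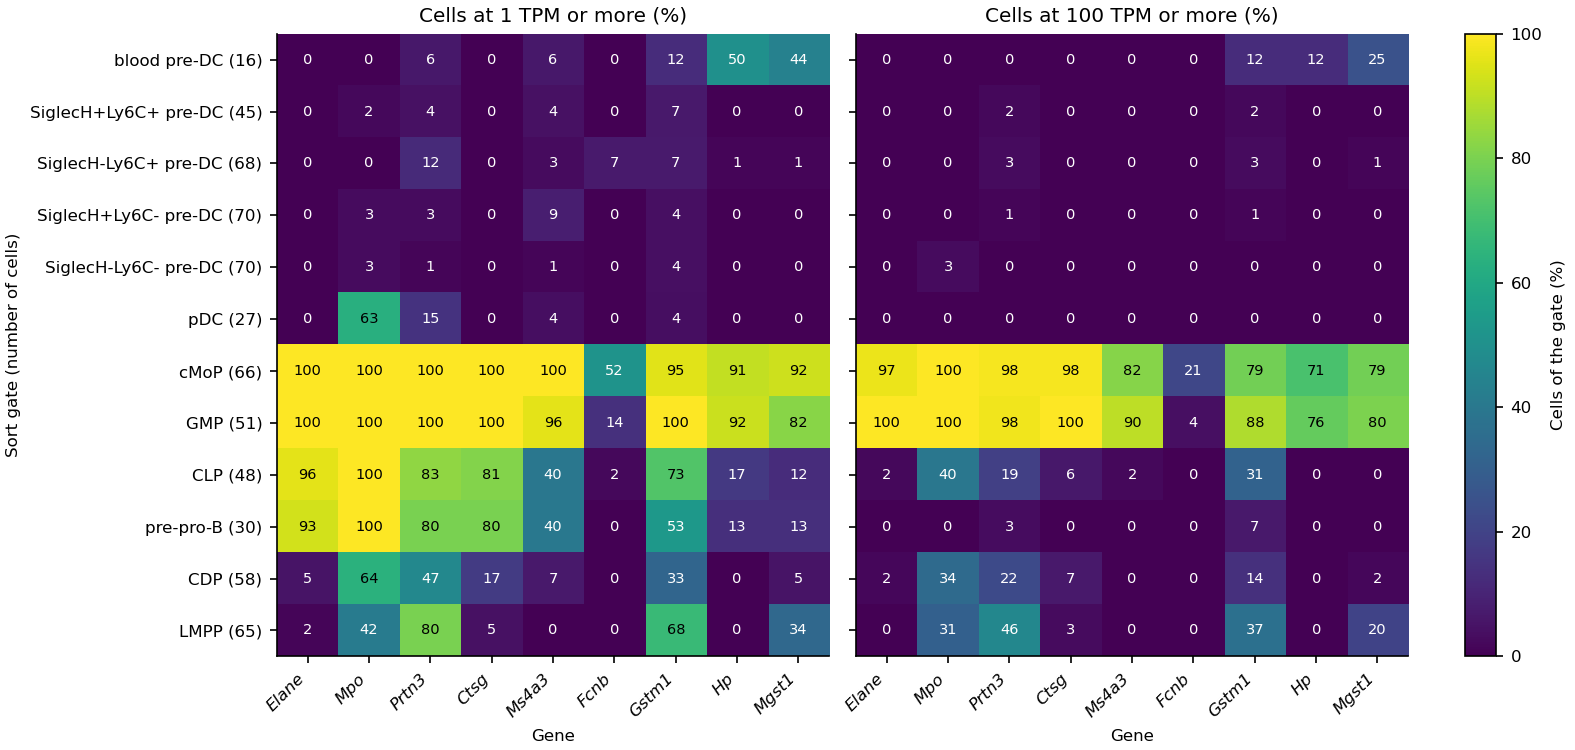
Share of cells (%) with each of the 9 genes at 1 TPM or more (left) and at 100 TPM or more (right), by sort gate with the number of cells in parentheses. Only cMoP and GMP stay high at both thresholds; in CLP and pre-pro-B, Elane is in 95.8% and 93.3% of cells at 1 TPM but in 2.08% and 0% at 100 TPM.

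Among the serine proteases, Elane ran from 9.34 TPM through a median of 3525 to 20484 TPM in cMoP, and from 376 through 8497.5 to 33098 TPM in GMP. It reached 100 TPM in 64 of 66 cMoP cells (97.0%, with an exact 95% interval, Clopper-Pearson, of 89.5 to 99.6%) and 51 of 51 GMP cells (93.0 to 100%). These intervals, and all others here, cover counting error only. In the gates of other runs Elane was nearly absent. In CDP 3 of 58 cells had it at 1 TPM or more, with a highest value of 235.4 TPM, a single LMPP cell of 65 had it, at 72.9 TPM, and it was listed at 0 in every pDC and pre-DC of marrow and blood. In the 16 blood cells a count of 0 allows a share of up to 18.8%, and in the 27 pDC up to 11.1%.

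Prtn3 ran from 70.5 TPM through 1637 to 3743 TPM in cMoP and from 31.5 through 4159.6 to 14360 TPM in GMP. Unlike Elane it was also common in CDP and LMPP. In CDP it was at 100 TPM or more in 13 of 58 cells (22.4%, 12.5 to 35.3), with a highest value of 1985 TPM. In LMPP it was at 1 TPM or more in 52 of 65 cells (80.0%, 68.2 to 88.9) and at 100 TPM or more in 30 (46.2%, 33.7 to 59), with a median of 71.9 and a highest value of 2876 TPM. Of the marrow pre-DC, SiglecH-Ly6C+ cells had Prtn3 in 8 of 68 at 1 TPM and 2 at 100 TPM, up to 673.3 TPM, and each of the other 3 gates had it in at most 2 cells. LMPP and cMoP means of Prtn3 still differed by more than the larger SD.

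Ctsg was the protease with the narrowest spread in GMP, from 208 TPM through 3850.4 to 9299 TPM, and in cMoP it ran from 3.85 through 1038.2 to 3503 TPM. In CDP and LMPP it was rare. At 100 TPM or more it was in 4 of 58 CDP (6.90%, 1.91 to 16.7), with a highest value of 839 TPM, and in 2 of 65 LMPP cells (3.08%, 0.375 to 10.7), with a highest value of 1047.5 TPM. All pDC and pre-DC were listed at 0.

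Mpo had the highest median of the 9 genes in both gates. It ran from 916.8 TPM through 9536 to 32081 TPM in cMoP and from 241.8 through 14138 to 29178 TPM in GMP, and 100% of the cells of each were at 100 TPM or more. Like Prtn3 it appeared in part of the CDP and LMPP cells, at 100 TPM or more in 20 of 58 CDP (34.5%, 22.5 to 48.1) and 20 of 65 LMPP cells (30.8%, 19.9 to 43.4). Single cells of these gates reached 3978.2 TPM in CDP and 3870 TPM in LMPP, whereas the gate medians were 2.96 and 0.46 TPM. Most LMPP cells therefore had little or no Mpo while others reached levels within the range of cMoP. In SiglecH-Ly6C- pre-DC, 2 of 70 cells had Mpo, up to 664.2 TPM, and all blood pre-DC were listed at 0.

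**Figure D2:**
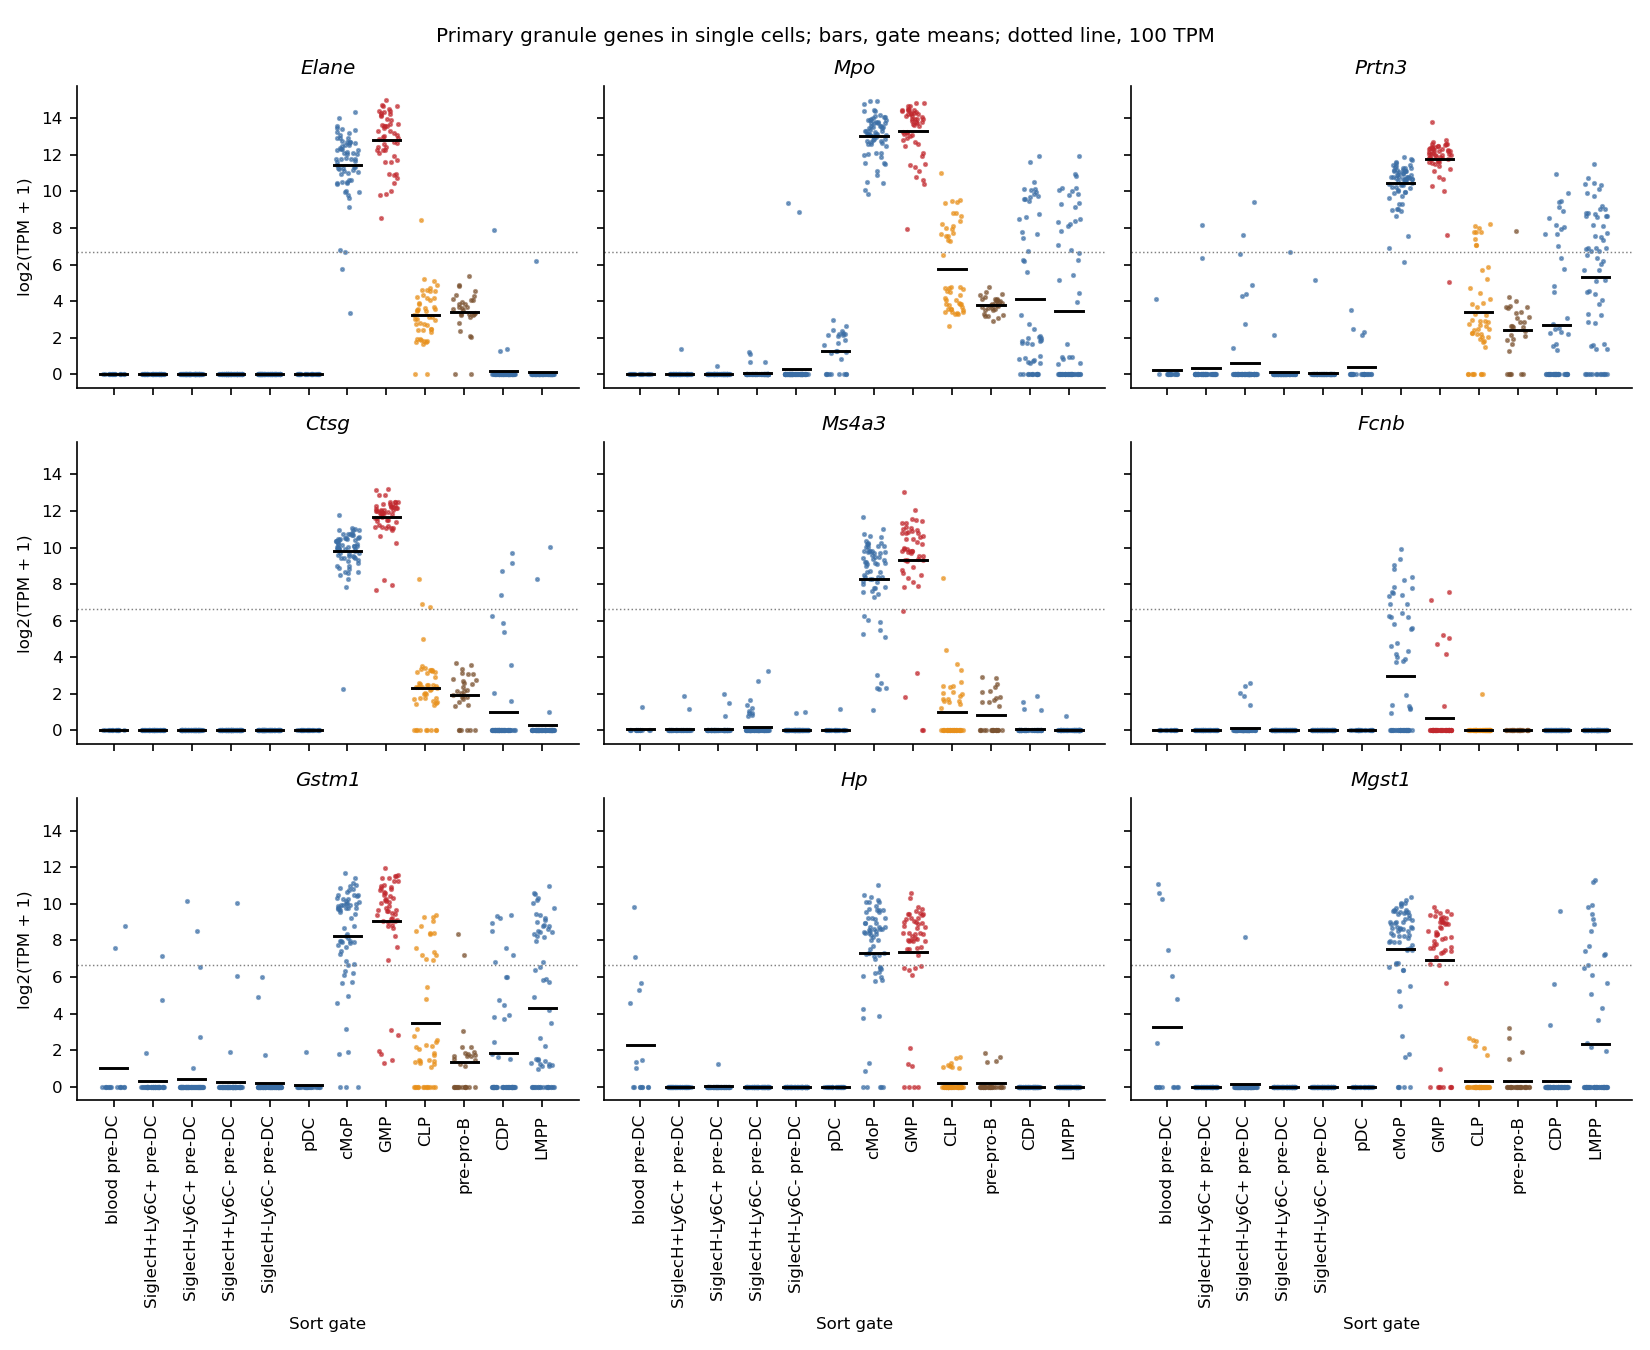
Level of each gene in single cells, log2(TPM + 1), by sort gate; each point is a cell, the bar is the gate mean and the dotted line is 100 TPM. GMP (red), CLP (orange) and pre-pro-B (brown) share a library number run; Mpo and Prtn3 in LMPP and CDP spread from 0 to above 10 on this scale, while Elane lies at 0 in nearly all of those cells.

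Of the companion genes, Ms4a3 followed Elane most closely. It ran from 1.18 TPM through 549.5 to 3221 TPM in cMoP and from 0 through 911.4 to 8519 TPM in GMP. It reached 100 TPM in 54 of 66 cMoP (81.8%, 70.4 to 90.2) and 46 of 51 GMP cells (90.2%, 78.6 to 96.7). Outside these gates a single cell reached 100 TPM, a CLP cell at 325 TPM. In LMPP 0 of 65 cells had it at 1 TPM, a count that leaves room for a share of up to 4.62%, and in CDP its highest value was 2.69 TPM.

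Hp ran from 0 through 329.8 to 2086 TPM in cMoP and from 0 through 323 to 1567 TPM in GMP, with 71.2% and 76.5% of cells at 100 TPM or more. It was listed at 0 in every CDP, LMPP and pDC cell and in every marrow pre-DC but 1. Blood pre-DC were the exception among dendritic precursors: 8 of 16 cells had Hp at 1 TPM or more (50%, 24.7 to 75.3) and 2 at 100 TPM or more, up to 902.2 TPM.

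Mgst1 ran from 0 through 365 to 1324.5 TPM in cMoP and from 0 through 291 to 899.3 TPM in GMP, with 78.8% of cMoP and 80.4% of GMP cells at 100 TPM or more. It was also in 7 of 16 blood pre-DC at 1 TPM (43.8%, 19.8 to 70.1) and in 4 at 100 TPM, up to 2149 TPM. In CDP 3 of 58 cells had it at 1 TPM and 1 at 100 TPM. In LMPP it was in 22 of 65 cells at 1 TPM and 13 at 100 TPM (20%, 11.1 to 31.8), up to 2510 TPM, which is above the highest value in cMoP and in GMP.

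Gstm1 ran from 0 through 733 to 3282 TPM in cMoP and from 1.44 through 868.6 to 3924.2 TPM in GMP. Outside them it was at 100 TPM or more in 8 of 58 CDP (13.8%, 6.15 to 25.4), 24 of 65 LMPP cells (36.9%, 25.3 to 49.8) and 2 of 16 blood pre-DC. Single marrow pre-DC reached 1122 TPM (SiglecH-Ly6C+) and 1065 TPM (SiglecH+Ly6C-). Reads of Gstm1 can be shared with related Gstm genes, so its level is uncertain. Among those relatives Gstm4 averaged 3.05 ± 3.18 and Gstm5 1.28 ± 2.63 in GMP on the log2(TPM + 1) scale (SD, 51 cells), against 9.08 ± 2.80 for Gstm1.

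Fcnb was the exception within the set. In cMoP it was at 1 TPM or more in 34 of 66 cells (51.5%, 38.9 to 64) and at 100 TPM or more in 14 (21.2%, 12.1 to 33), with a median of 1.31 and a highest value of 970.8 TPM. In GMP it was in 7 of 51 cells (13.7%, 5.70 to 26.3) at 1 TPM and 2 (3.92%, 0.479 to 13.5) at 100 TPM, with a highest value of 191 TPM. Beyond these gates it was seen in 5 of 68 SiglecH-Ly6C+ pre-DC, up to 5.09 TPM, and in 1 CLP cell at 3.04 TPM.

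The comparison of GMP with LMPP sets the granulocyte-monocyte progenitor against an earlier multipotent one. By the difference between gate means of log2(TPM + 1), 8 of the 9 genes were higher in GMP by more than 2, that is by more than 4-fold, against 35.9% of 9315 genes (3.66% were lower by as much). Genes entered when 20% of cells in either gate reached 1 TPM. The members' median was 7.38 and that of all genes 1.36. Fcnb and Hp were listed at 0 in every LMPP cell and Ms4a3 was under 1 TPM in all, so that median depends on the value of 1 added to each TPM. Elane averaged 12.79 ± 1.5 in GMP and 0.10 ± 0.77 in LMPP, Ctsg 11.66 ± 1.11 and 0.30 ± 1.61. For Prtn3, at 11.75 ± 1.31 in GMP and 5.34 ± 3.65 in LMPP, the difference was 6.42. It was 4.76 for Gstm1 and 4.58 for Mgst1, both of which part of the LMPP cells already had. Counting genes, 1 had a larger difference than Elane, while 280 had a larger one than Gstm1 and 365 a larger one than Mgst1.

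In cMoP against LMPP all 9 were higher by more than 2, against 22.3% of 10435 genes (1.35% were lower), with a median of 7.32 (all genes 1.09). This comparison shares the LMPP cells with the one before. Elane was higher by 11.36, Mpo by 9.60, Ctsg by 9.54 and Prtn3 by 5.10. Fcnb, listed at 0 in LMPP, averaged 2.98 in cMoP.

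Between the myeloid gates, cMoP and GMP, 8 of the 9 differences were within 2, though those of Prtn3 and Ctsg exceeded the larger SD. Fcnb alone passed 2, at 2.98 ± 3.38 in cMoP and 0.69 ± 1.89 in GMP, a difference of 2.29. Of 11004 genes 6.69% were higher and 7.89% lower by that much. The other 8 lay between -1.82 (Ctsg) and 0.59 (Mgst1), with a median over the 9 of -0.82, while that of all genes was at 0.00. Lower values in cMoP were seen for Elane (11.46 ± 1.89 against 12.79 ± 1.5 in GMP), Prtn3 (10.43 ± 1.07 against 11.75 ± 1.31) and Ctsg (9.83 ± 1.21 against 11.66 ± 1.11), and Mpo was nearly level (13.04 ± 1.13 against 13.28 ± 1.4). With values under 100 TPM set to 0, a setting chosen after the data were seen, Fcnb had 1.43 and none passed 2. Library number run and gate cannot be told apart here, since cMoP have a run of their own.

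CDP against LMPP gave a different order of the genes. Prtn3 (2.70 ± 3.61 in CDP and 5.34 ± 3.65 in LMPP), Gstm1 (1.85 ± 3.09 and 4.32 ± 4.09) and Mgst1 (0.32 ± 1.5 and 2.35 ± 3.67) were lower in CDP by 2.64, 2.47 and 2.02, against 1.06% of 9081 genes lower and 5.78% higher by more than 2. Mpo was not lower, at 4.12 ± 4.16 in CDP and 3.43 ± 4.25 in LMPP. Elane, Ctsg and Ms4a3 were at or below a mean of 1.03 in both gates. The differences of Prtn3, Gstm1 and Mgst1 were smaller than the larger of the 2 SDs. With a pseudocount of 10 none of the 3 passed 2, and with values under 100 TPM set to 0 Mgst1 had -1.60 and did not pass.

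CDP and LMPP cells with a granule gene at 100 TPM or more mostly had 1 or 2 of the 9. In CDP the 20 Mpo cells and 13 Prtn3 cells at 100 TPM or more shared 8, which is 13.8% of cells against the 7.73% that multiplying their shares gives. Of the 4 CDP with Ctsg, 3 also had Mpo and 3 had Prtn3, and 28 of 58 cells had none of the 9. Of 65 LMPP cells 55 had at least 1 of the 9 genes at 100 TPM or more, but the median was 1 gene per cell and no cell had more than 3. Of the 30 LMPP cells with Prtn3 and the 20 with Mpo, 12 had both, which is 18.5% of cells against 14.2%. Mpo and Gstm1 were together in 6 cells (9.23% against 11.4%) and Prtn3 and Gstm1 in 9 (13.8% against 17%). Both LMPP cells with Ctsg also had Mpo and Prtn3.

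cMoP and GMP cells carried nearly the whole set at once, with a median of 8 genes at 100 TPM or more in each. All 9 were present in 10 of 66 cMoP and 2 of 51 GMP cells, a count that Fcnb sets in GMP. The lowest number in any cell of these gates was 3. Elsewhere a number of 3 or more was seen in 5 CLP, 3 CDP and 9 LMPP cells and 1 blood pre-DC, and 27 of 27 pDC had none.

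**Figure D3:**
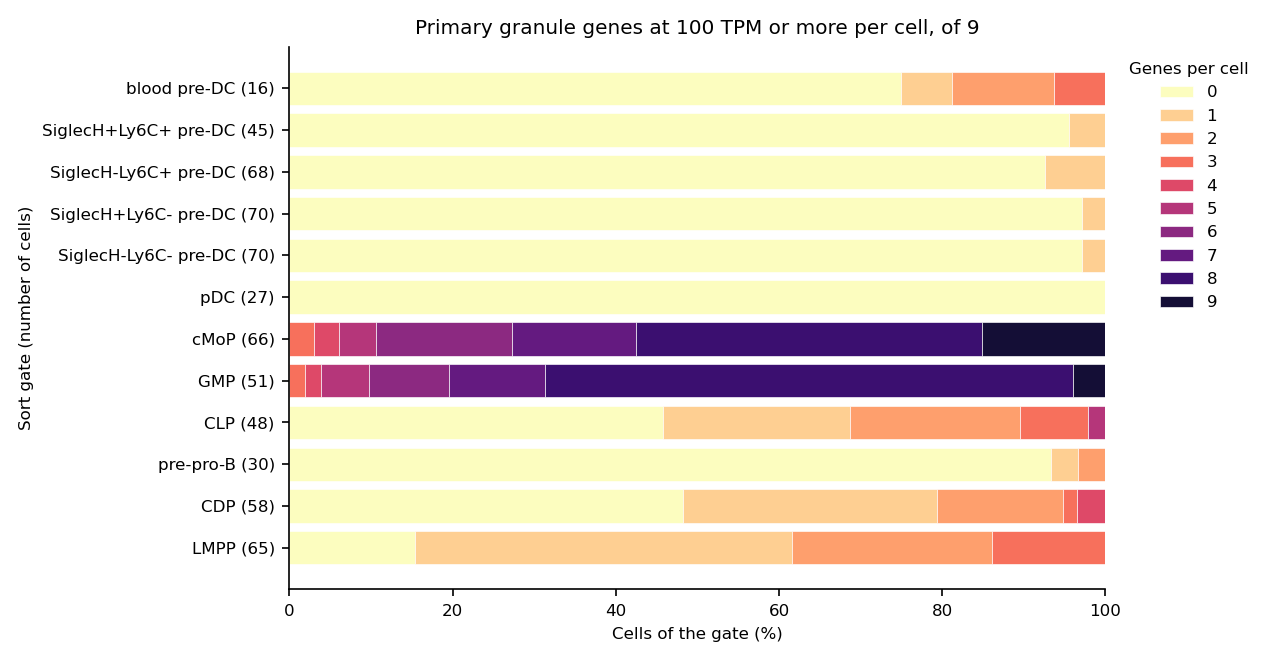
Number of the 9 genes at 100 TPM or more per cell, as shares of the cells of each gate (%); darker bars stand for more genes and numbers in parentheses are cells. The median is 8 in cMoP and in GMP, 1 in CLP, CDP and LMPP, and 0 in the other gates.

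Within a gate, levels of the genes varied together from cell to cell in cMoP and GMP and not in LMPP. In cMoP the 36 pairs had a median Pearson correlation of log2(TPM + 1) of 0.40 over 66 cells. Over 51 GMP cells the 28 pairs of members other than Fcnb had correlations between 0.29 and 0.85, with a median of 0.56. The protease pair Prtn3 and Ctsg was highest (0.85), Elane and Mpo had 0.82, and Ms4a3 and Mgst1 the lowest value. In CLP the median of 15 pairs was 0.27 over 48 cells, and in LMPP that of the 6 pairs among Mpo, Prtn3, Gstm1 and Mgst1 was -0.05 over 65 cells. The cells within each of these gates share a library number run and differ in depth. In GMP, Mgst1 (0.62), Gstm1 (0.59) and Hp (0.50) also correlated with the number of genes per cell, and the median pair had 0.45 once that number was partialled out. With Spearman's rho the GMP median was 0.57, but Mgst1 was then at 0.14 or less with the proteases, Mpo and Ms4a3.

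**Figure D4:**
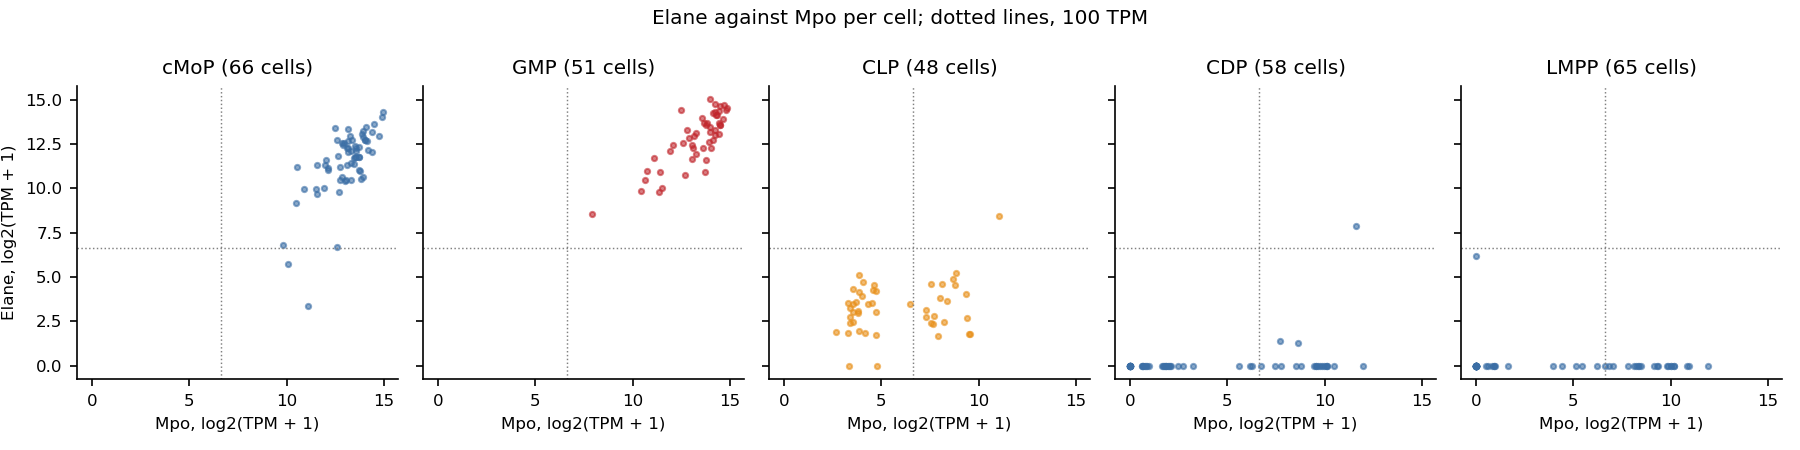
Elane against Mpo in single cells, both as log2(TPM + 1), in the 5 gates named above the panels; dotted lines mark 100 TPM. In cMoP and GMP nearly all cells lie above both lines, whereas in CDP and LMPP cells with Mpo above 100 TPM have Elane at or near 0, except 1 CDP cell.

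In the run that CLP, pre-pro-B and GMP share, every member but Fcnb was seen in both lymphoid gates. In pre-pro-B cells, which are committed to the B lineage and are not known to make granule proteins, Elane ran from 0 through 11.2 to 40.3 TPM and Mpo from 6.55 through 13.2 to 26.2 TPM. Elane was in 28 of 30 of these cells at 1 TPM and in 0 at 100 TPM, so that a share of up to 10% remains possible. Relative to GMP, the medians of the 5 genes with a median above 0 were between 0.0860% (Ctsg) and 0.143% (Gstm1) of the GMP median, within 1.66-fold of each other. Elane had 0.131%, Prtn3 0.124% and Mpo 0.0930%. By median, these 5 genes stood to each other nearly as in GMP, at a far lower level. Ms4a3, Hp and Mgst1 had a pre-pro-B median of 0 and do not enter. Ms4a3 had 0.102% of the GMP mean. Besides it only Car1, a carbonic anhydrase of erythroid cells, averaged 300 TPM or more in GMP and 1 TPM or less in the 8 gates of other runs except cMoP, and Car1 had 0.0663%. By mean TPM the range was wider, from 0.0686% (Hp) to 1.46% (Gstm1), because 1 pre-pro-B cell had Prtn3 at 224 TPM and 2 had Gstm1 above 100 TPM, up to 328 TPM. A part of carried-over reads in these low values was not tested.

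CLP cells showed a similar low level and, for some genes, further cells above it. Mpo was at 1 TPM or more in all 48 CLP cells, with a lowest value of 5.32, a median of 24.7 and a highest value of 2092 TPM. At 100 TPM or more it was in 19 (39.6%, 25.8 to 54.7), and 21 cells were above the highest pre-pro-B value of 26.2 TPM. Gstm1 reached 100 TPM in 15 cells (31.3%, 18.7 to 46.3), up to 674.1 TPM, and Prtn3 in 9 (18.8%, 8.95 to 32.6), up to 301.04 TPM. Above the highest pre-pro-B values of these genes, 328 TPM for Gstm1 and 224 TPM for Prtn3, lay 8 CLP cells for Gstm1 and 3 for Prtn3. For Elane 45 of 48 cells had it between 1 and 100 TPM, and 1 cell, at 349 TPM, lay above the highest pre-pro-B value. For Hp and Mgst1, 0 CLP cells exceeded that value, with highest values of 2.08 and 5.39 TPM, and for Ctsg and Ms4a3 4 cells each did. By mean TPM the CLP level was 9.33% of that in GMP for Gstm1, 1.43% for Mpo and 1.12% for Prtn3, but 0.170% for Elane and 0.0605% for Hp.

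**Figure D5:**
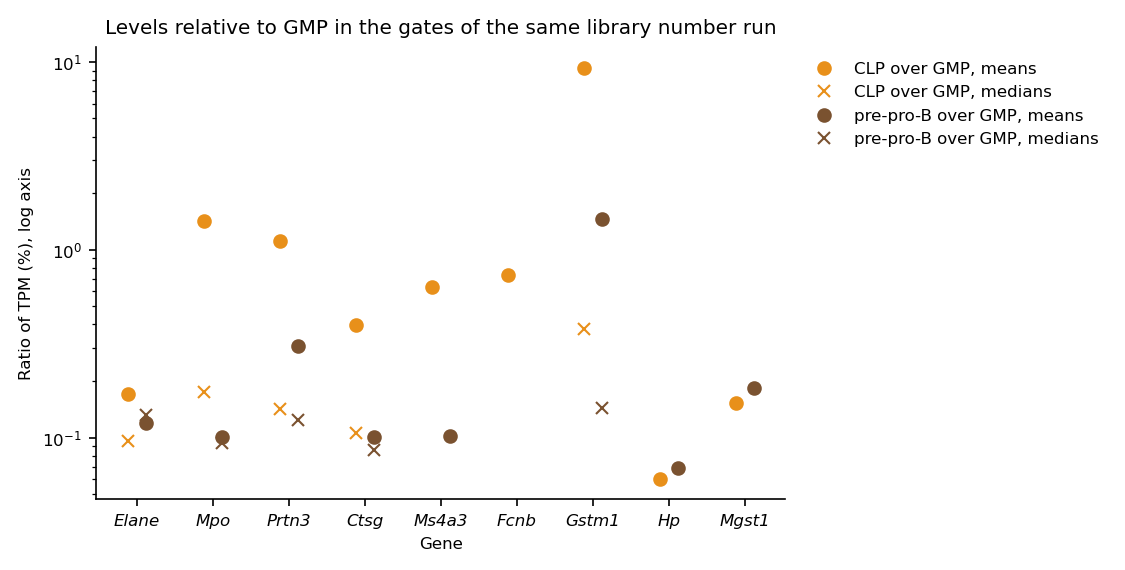
Level in CLP (orange) and pre-pro-B cells (brown) as a percentage of that in GMP, on a log axis, by gene; circles are ratios of mean TPM and crosses ratios of median TPM, drawn where above 0. The pre-pro-B medians lie between 0.0860% and 0.143%; the CLP means of Mpo, Prtn3 and Gstm1 lie at 1.12% or more.

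At 100 TPM, several members met in the same CLP cells. Mpo was together with Gstm1 in 10 cells (20.8% against 12.4% by multiplication), with Prtn3 in 7 (14.6% against 7.42%) and with Ctsg in all 3 Ctsg cells. In all, 26 of 48 CLP cells had at least 1 member at that level. One cell had 5, and 22 had none.

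Set against each other, GMP exceeded CLP by more than 2 in 8 of the 9 genes, against 25.8% of 8694 genes (0.874% were lower), and exceeded pre-pro-B cells in the same number, against 24.2% of 8891 genes (1.59% were lower). Over the 9 genes the median difference was 7.51 against CLP (all genes 1.22) and 8.51 against pre-pro-B cells (all genes 1.10). Both comparisons use the same GMP cells. With the low values set to 0, Elane was higher in GMP than in CLP by 12.61 rather than 9.53, and 8 genes again passed 2 in each.

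CLP were also compared with LMPP. At face value Elane (3.26 ± 1.42 in CLP and 0.10 ± 0.77 in LMPP), Mpo (5.76 ± 2.36 and 3.43 ± 4.25) and Ctsg (2.34 ± 1.77 and 0.30 ± 1.61) were higher in CLP by 3.16, 2.33 and 2.05, and Mgst1 (0.29 ± 0.78 and 2.35 ± 3.67) lower by 2.06. Among 7087 genes 9.52% were higher and 5.63% lower by that much. With values under 100 TPM set to 0 the difference of Elane was 0.18, of Mpo 0.51 and of Ctsg 0.18, and Prtn3 alone passed 2, at -2.54. By the log2 of the mean TPM, Mpo had -0.54 and Ctsg -0.41. Calls that CLP have more Elane, Mpo or Ctsg than LMPP thus rest on values under 100 TPM. Of 46 CLP cells with Elane at 1 TPM or more 45 were under 100 TPM, as were 36 of 39 with Ctsg. Setting such values to 0, chosen after the data were seen, therefore removes those 2 differences by construction. The source of the low values was not tested.

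In pDC, Mpo was the only member in more than 4 of 27 cells: 17 had it at 1 TPM or more, up to 6.79 TPM, and 0 at 100 TPM. Of these pDC, the 24 that share a run with CDP had a mean of 2.29 TPM, 0.666% of that in CDP. Against CDP, pDC were lower by more than 2 for Mpo (1.27 ± 1.03 in pDC and 4.12 ± 4.16 in CDP) and Prtn3 (0.39 ± 0.97 and 2.70 ± 3.61), against 6.94% of 9537 genes (1.56% were higher). With values under 100 TPM set to 0, 1 gene passed.

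The marrow pre-DC had almost none of the programme. SiglecH-Ly6C+ pre-DC were lower than cMoP by more than 2 for all 9 genes, against 16.5% of 10549 genes (1.2% were higher), with a median of -8.22 (all genes -0.80). Elane and Ctsg were listed at 0 in these pre-DC, and Mpo reached at most 0.39 TPM. Against CDP they were lower for Mpo by 4.12 and Prtn3 by 2.09, against 3.84% of 9389 genes (2.4% were higher). Mpo alone passed 2 with a pseudocount of 10, without the 5% of cells with the most genes, or with values under 100 TPM set to 0, where Prtn3 had -1.70. In the 3 comparisons among marrow pre-DC gates 0 of the 9 passed the filter of 20% of cells and none passed 2, although some genes did. For SiglecH+Ly6C+ against SiglecH-Ly6C+ 0.415% of genes were higher and 0.818% lower, for SiglecH+Ly6C- against SiglecH-Ly6C- 2.56% and 0.953%, and for SiglecH+Ly6C+ against SiglecH+Ly6C- 0.442% and 1.09%. A single member reached 100 TPM in 2 of 45 SiglecH+Ly6C+ cells, in 5 of 68 that were SiglecH-Ly6C+, and in 2 of 70 cells of each Ly6C- gate.

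Blood pre-DC differed from marrow pre-DC in Mgst1 and Hp. Mgst1 averaged 3.29 ± 4.38 and Hp 2.27 ± 3.17 over the 16 cells, and both were listed at 0 in all 70 SiglecH-Ly6C- pre-DC, so no fold is given. Those 2 genes passed 2, against 1.88% of 8318 genes (5.65% were lower). With a pseudocount of 10 neither passed, and with values under 100 TPM set to 0 Mgst1 alone did. Elane, Mpo, Ctsg and Fcnb were listed at 0 in every blood cell. At 100 TPM, 4 blood cells had Mgst1, 2 of them with Hp and 2 with Gstm1. All 7 genes of the monocyte list (Csf1r, Ccr2, Ly86, Klf4, F13a1, Ms4a6c and Irf8) were detected in at least 20% of the blood cells, with a summed level from 14.9 through a median of 3497 to 8102 TPM. In SiglecH-Ly6C- pre-DC 5 of the 7 were, and the sum ran from 725 through 2903 to 6626 TPM. Between these gates 2 of the 7, Csf1r and F13a1, were higher in blood by more than 2, Irf8 was lower and 4 were within 2. In SiglecH-Ly6C+ marrow pre-DC, where 1 of 68 cells each had Hp and Mgst1, all 7 were detected in at least 20% of cells, and their sum had a median of 4159 TPM. In blood pre-DC, 8 of 11 late neutrophil markers were at 0 in all cells, including S100a8, S100a9, Ltf and Camp. Mmp8, Cxcr2 and Ly6g were in at least 20% of blood cells, and the summed level ran from 0 through 5.56 to 165 TPM. Cxcr2 and Ly6g were not particular to blood. Cxcr2 was in at least 20% of cells in every marrow pre-DC gate, pDC, CDP, LMPP and cMoP. Ly6g was so in both Ly6C+ marrow pre-DC gates, pDC, cMoP and GMP. Of 8 secondary granule genes, Mmp8 and Chil3 were in at least 20%, with a sum from 0 through 3.075 to 4726 TPM. Against SiglecH-Ly6C- pre-DC 1 of these 8 was higher by more than 2 and 7 were within 2. Of 4 erythroid genes, Hba-a1 was in at least 20% of blood cells, with a summed level of up to 6780 TPM. The part of monocyte, neutrophil or erythroid transcripts in the Mgst1 and Hp values was not tested.

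The gates in which the genes were high were described with later granule genes and with genes of other lineages. Of 8 secondary granule genes 0 were higher by more than 2 in GMP than in LMPP, against 35.9% of 9315 genes. That share covers genes that passed the filter of 20% of cells. Of the 8, only Lcn2 in GMP and Chil3 in LMPP did, so most could not have been called. Lcn2 had a difference of 1.93, close to the cut, and Chil3 of -1.30. Ltf (lactoferrin), Camp (cathelicidin) and Ngp were at 0 in every GMP cell, and Lcn2, the lipocalin of secondary granules, was in 12.1% of cMoP and 31.4% of GMP cells. Summed over 11 late neutrophil markers, cells ranged from 2.43 through 30.3 to 806.9 TPM in cMoP and from 0 through 25.7 to 3327 TPM in GMP. In GMP against LMPP 1 of the 11, Ly6g, was higher by more than 2 (by 2.85), 1, Cxcr2, was lower and 9 were within 2. Ly6g was in at least 20% of the cells of cMoP and GMP, but also of pDC, blood pre-DC and both Ly6C+ marrow pre-DC gates. S100a8 was in at least 20% of cMoP cells. Cxcr2 reached that share in every gate outside the run of CLP, pre-pro-B and GMP and in none within it. For Cxcr2, run and gate cannot be told apart. Of 3 eosinophil genes, Epx and Prg2 were at 0 in cMoP and GMP. Prg3 averaged 0.11 ± 0.64 in cMoP and 0.45 ± 1.47 in GMP, on the log2(TPM + 1) scale. Monocyte genes were high in both gates. Against LMPP, 6 of 7 were higher by more than 2 in GMP (median 6.37), beside 35.9% of all genes. In cMoP 7 of 7 were (median 7.16), beside 22.3% of all genes. Basophil and mast cell genes, which some GMP cells are known to turn on, were also present: 5 of 6 were seen in GMP, Mcpt8 and Gata2 in at least 20% of cells, with a summed level from 0 through 2.21 to 3386 TPM.

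Other primary granule genes were higher along with the members. In GMP against LMPP, 6 of 8 were higher by more than 2, with a median of 3.22, among them Gusb (β-glucuronidase) by 4.60, Lyz2 (lysozyme) by 4.0, Prss57 (a serine protease) by 3.87, Man2b1 (a lysosomal mannosidase) by 3.49 and Gaa (acid glucosidase) by 2.95. Bpi was listed at 0 in both gates, and Lyz1 averaged 0.40 in GMP and was listed at 0 in LMPP. Of 8 genes that process or package granule proteins 4 were higher: Cst7 (cystatin F, an inhibitor of cathepsins) by 6.30, Calr (calreticulin, a chaperone of the myeloperoxidase precursor) by 5.74, Ctsc (the cathepsin that activates the granule proteases) by 5.28 and Nsf (a membrane fusion factor) by 3.22. Srgn, the proteoglycan core to which the proteases bind, averaged 10.42 ± 1.21 in GMP and was already at 9.80 ± 1.73 in LMPP. These counts stand against the 35.9% of all genes above.

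Against LMPP, GMP also had higher values for 5 of 8 granulocyte regulators, beside 35.9% of all genes: Spi1 (PU.1) by 6.21, Cebpd by 5.13, Cebpb by 4.60, Myb by 2.69 and Cebpa by 2.53, while Cebpe, needed for secondary granules, was in 39.2% of GMP cells. In cMoP 3 of these 8 were lower than in GMP by more than 2, beside 7.89% of all genes. Cebpd averaged 0.71 ± 1.25 in cMoP and 5.23 ± 2.65 in GMP, Spi1 3.59 ± 2.52 and 7.87 ± 1.79, and Cebpb 2.23 ± 1.31 and 5.10 ± 2.09.

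Across the 12 gate means, the genes whose pattern was most like that of the members together were Hk3 (a hexokinase, Pearson 0.99), Alas1 (the first enzyme of haem synthesis), Tmem97, Ethe1, Tfec, Anxa3, Trem3, Mrpl47, Cad and Ccdc22, all at 0.98 or more. With cMoP and GMP high and the other gates low, the 12 points form 2 clusters, and other genes high in both would score alike. Hk3 averaged 5.76 in cMoP and 5.39 in GMP and at most 0.80 elsewhere, and Tfec 4.82 and 5.07 with at most 0.38 elsewhere. For single members the nearest genes were Cldn15 for Ms4a3 (0.995), Alas1 for Ctsg (0.99), Ncln for Hp (0.99), Ethe1 for Elane and Mpo (0.98 each), Selenbp1 for Gstm1, Lppr3 for Prtn3 and Nrg1 for Fcnb (0.98 each), and Pygl for Mgst1 (0.98). By Spearman correlation 1 of the 10 genes nearest to the members together was shared, Ethe1, and without CLP and pre-pro-B 7 were.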

How the data were processed

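The deposited table holds TPM for each cell by gene symbol. RSEM 1.2.19 and GRCm38 are named in the submitters' processing notes. Neither the aligner nor the annotation is given in the sources used here. Libraries were made with Nextera XT, per the labels. TPM keep no read counts, so depth is unknown and its limit on precision cannot be computed. All 614 cells were used, grouped by sort gate from the labels. No doublet caller was run.

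Per gate, the share of cells at 1 and 100 TPM or more was computed with an exact Clopper-Pearson 95% interval, a share of 0 with the limit that 3 counts allow, and the mean and SD over cells of log2(TPM + 1). For 14 comparisons the value was the difference between gate means, called past 2, with a filter of 1 TPM in 20% of the cells of either gate. A fold on this scale understates the change of low genes. Each gate is 1 sample, so no p-value was computed. Members and gene lists were chosen with earlier results of these data known. Named besides the 9 genes are the 10 genes with the highest correlation over gate means with the members together and the highest for each member, among genes at 1 TPM in 50% of the cells of a gate, and genes of 14 lists. That rule leaves out predicted, pseudo-, mitochondrial and ribosomal protein genes.

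Also tried were a pseudocount of 0.1 or 10, the mean TPM logged after averaging, size factors, leaving out cells under 2000 genes or the 5% with the most genes, single runs, other thresholds, Spearman correlation and, added after seeing the data, values under 100 TPM set to 0. Tables were read with pandas 2.3.3 and numpy 2.4.6 in Python 3.11.15, intervals came from scipy 1.17.1 and plots from matplotlib 3.10.9. Of the steps, only the gate differences and the search for genes with a like pattern over gate means were tested on simulated data.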

Additional observations from a re-analysis of the deposited data

How the results depend on the processing

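No paired analysis was possible because each gate is 1 sample and replicate numbers only name cells. TPM keep no depth, so a gene listed at 0 in a cell may have been missed. With a pseudocount of 10 the median difference of the 9 genes was 6.05 for GMP against pre-pro-B cells and -5.14 for SiglecH-Ly6C+ pre-DC against cMoP; with 0.1 it was -11.39 for the second and 10.40 for GMP against LMPP. For pDC against CDP it was -3.94 with the log2 of the mean TPM. Calls past 2 numbered 0 for cMoP against GMP with a pseudocount of 10 and with values under 100 TPM set to 0. CDP against LMPP had 0 with a pseudocount of 10. CLP against LMPP had 0 with a pseudocount of 10, 2 without cells under 2000 genes and 1 with the low values at 0, and with the log2 of the mean TPM Mpo (-0.54) and Ctsg (-0.41) changed sign. SiglecH-Ly6C+ pre-DC against CDP had 1 with a pseudocount of 10, without the 5% of cells with the most genes and with the low values at 0, and 4 with the log2 of the mean. That scale gave 2 calls each for SiglecH+Ly6C+ against SiglecH-Ly6C+ and SiglecH+Ly6C- against SiglecH-Ly6C- pre-DC, 6 for pDC against CDP and 4 for blood against SiglecH-Ly6C- pre-DC. For pDC against CDP a pseudocount of 10 and the low values at 0 each gave 1. For blood pre-DC they gave 0 and 1. The median number of genes per cell at 1 TPM was 1 in blood pre-DC and pDC, 5 in CLP and pre-pro-B cells and 2 in CDP and LMPP. At 10 TPM it was 2 in pre-pro-B cells and LMPP, and at 1000 TPM it was 4 in cMoP, 5 in GMP and 0 in CDP and LMPP. Beyond what the settings change by construction, the cause was not tested.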
